A study of Mus musculus with 21 samples.

Results

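The Hox cluster genes of the mouse were followed in E14 embryonic stem cells given vitamin B6 or vehicle. The members were the protein-coding rows of the deposited gene table whose symbol is Hox, a cluster letter from a to d and a paralog number, which gave 39 genes of 78317 gene rows; 38 of them are described. E14 is a male mouse embryonic stem cell line. Each of 7 groups had 3 RNA-seq libraries: E14 cells with 20 µM pyridoxine, which is vitamin B6 in its alcohol form and is written VB6 here, for 3, 5 or 7 days, E14 cells kept with the vehicle for the same 3 lengths of time, and untreated E14 cells in standard culture (ES below). The labels name neither the vehicle nor the medium of the treated cultures. They also do not say whether replicate libraries stem from independent cultures, and p-values then measure only the spread between these libraries, which may be technical. Every group was the same cell line, and the labels name no transgene or mutation. The series title places the study in endoderm differentiation; the comparisons here were VB6 against vehicle at each day, and later against earlier days.

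Hox genes encode homeodomain transcription factors that give cells of the embryo their position along the head-to-tail axis. They lie in 4 clusters, and within a cluster the order of the genes on the chromosome matches the order in which they are switched on in the embryo and the level of the axis at which they act, with low paralog numbers earliest and most anterior. In pluripotent cells the clusters are known to be held silent by Polycomb repression, and retinoic acid, WNT and FGF signals open them from the anterior end. In mm10 coordinates (GENCODE M21 annotation) the 10 members of cluster a described here span 98.5 kb on chromosome 6 (chr6:52162417-52260880), cluster b spans 174 kb on chromosome 11 (chr11:96194316-96368256, 10 members), cluster c 116 kb on chromosome 15 (chr15:102921103-103036852, 9 members) and cluster d 96.8 kb on chromosome 2 (chr2:74668310-74765142, 9 members). Below, paralogs 1 to 4 are called anterior (11 members), 5 to 8 central (11 members) and 9 to 13 posterior (16 members).

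The libraries held 15882380 to 21629730 expected counts over genes, of which the 38 Hox genes took only 108.1 to 365.4 per library. Levels are given as CPM, a count scaled to library size with TMM factors, or, where genes are compared or summed, as the deposited TPM, which also divides by transcript length. A member was called detected in a group when its mean CPM over the 3 libraries was at least 0.5. A count of 0 in a library allows up to 3 counts, or 0.144 to 0.187 CPM depending on the library, and covers counting error only. All 7 ES cell markers found in the table were detected in all 7 groups, and their summed TPM was 8520 to 10100 in ES libraries, 4290 to 4450 in VB6 day 3 and 4460 to 5020 in vehicle day 3, 1340 to 1480 in VB6 day 5 and 1090 to 1150 in vehicle day 5, and 458 to 529 in VB6 day 7 and 694 to 715 in vehicle day 7. The libraries of 2 groups stood apart from all others: VB6 day 7 and vehicle day 5 had summed FPKM of 620185 to 635609 and 628913 to 642003, ribosomal protein genes at 3.03 to 3.24% and 3.12 to 3.40% of counts, and mitochondrial genes at 3.00 to 3.49% and 4.08 to 4.47%. The other 5 groups had 755261 to 866301, 4.98 to 6.76% and 1.51 to 2.94%. Since each of these groups stood apart as a whole and in opposite arms, their library properties and the VB6 effect at days 5 and 7 cannot be told apart, and no comparison at those days can be made without them. In bulk RNA, fewer cells expressing a gene and less RNA per cell cannot be told apart either.

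Most Hox genes were near or below the detection level throughout. Of the 38 members, 6 were detected in ES cells, 11 in VB6 day 3 and 12 in vehicle day 3, 3 in VB6 day 5 and 4 in vehicle day 5, and 5 in VB6 day 7 and 3 in vehicle day 7. By the same measure 63.3 to 64.2% of all 21372 protein-coding genes were detected in a group, with a median of 11.2 to 18.5 TPM among them, whereas the highest group mean of these Hox genes was 4.26 TPM, for Hoxc13 in ES cells. In all, 15 members were detected in at least 1 group, and 1, Hoxc13, in every group. The ES set was Hoxb9, Hoxb13, Hoxc4, Hoxc13, Hoxd1 and Hoxd13, that is 2 anterior, 0 central and 4 posterior genes. At day 3 cluster b supplied 7 detected members in either arm (Hoxb1, Hoxb2, Hoxb3, Hoxb4, Hoxb7, Hoxb9 and Hoxb13), against 2 in ES cells. That equal number depends on the level: at 1 CPM no cluster b member was detected in VB6 day 3, where Hoxb3 was highest at 0.914 CPM, while Hoxb1, Hoxb2, Hoxb3, Hoxb4 and Hoxb13 were in vehicle day 3, and over all clusters 3 members were detected in VB6 day 3 and 8 in vehicle day 3. In addition, at 0.5 CPM, VB6 day 3 cells had Hoxa10, Hoxc13, Hoxd1 and Hoxd13, and vehicle day 3 cells had Hoxc4, Hoxc13, Hoxd1, Hoxd4 and Hoxd13. At day 5 the sets were Hoxb4, Hoxb9 and Hoxc13 with VB6, and Hoxb9, Hoxc13, Hoxd1 and Hoxd13 with vehicle. At day 7 they were Hoxa3, Hoxb4, Hoxc4, Hoxc13 and Hoxd8 with VB6, and Hoxb4, Hoxc4 and Hoxc13 with vehicle. Several members sat close to the threshold: Hoxc4 was inside it at 0.507 CPM in vehicle day 3, and Hoxa13 in VB6 day 7 (0.495 CPM), Hoxd9 in vehicle day 7 (0.494 CPM) and Hoxa10 in vehicle day 5 (0.488 CPM) were just outside. With the level set at 0.25 CPM, 11 members were detected in VB6 day 5 and 10 in vehicle day 5, and 10 in VB6 day 7 and 12 in vehicle day 7.

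**Figure D1:**
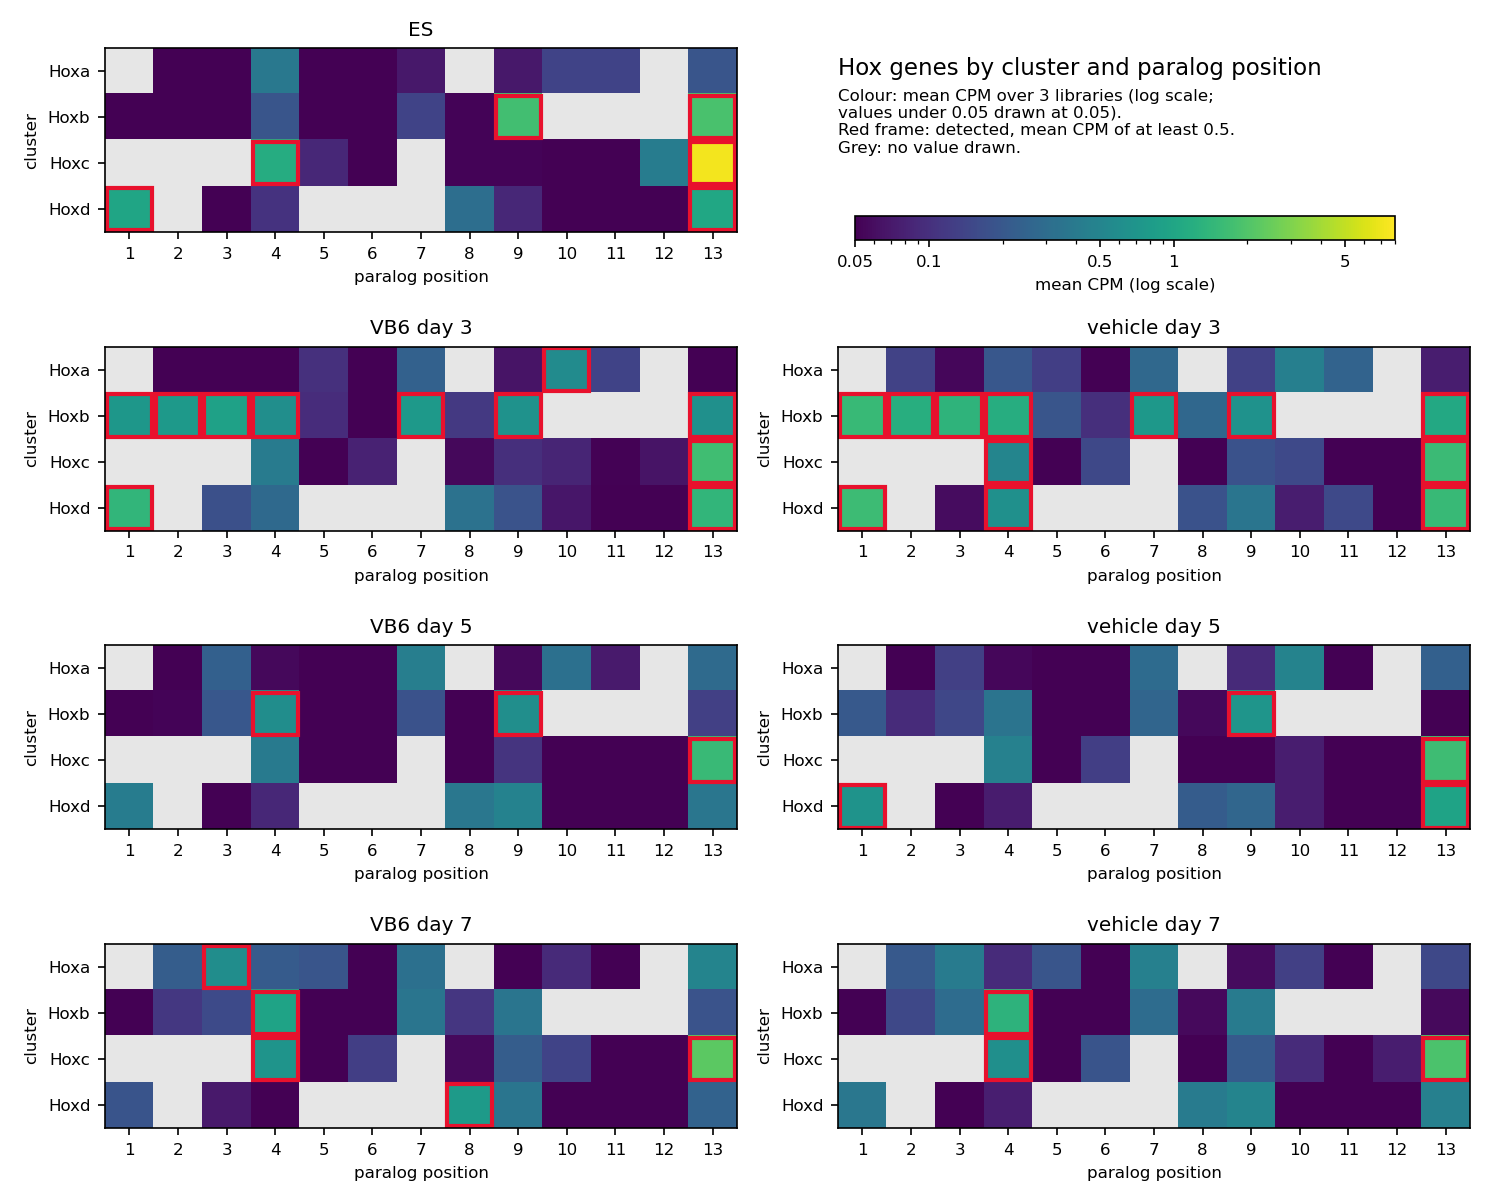
Mean CPM over 3 libraries of each of the 38 Hox genes (colour, log scale), laid out by cluster (rows) and paralog position (columns), with 1 panel per group; grey positions have no value drawn. Red frames mark members at 0.5 CPM or more. Cluster b holds 7 framed genes in both day 3 panels, and Hoxc13 is framed in all 7 panels.

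The other 23 members reached the detection level in no group. In cluster a, the highest value in any library was 0.723 CPM for Hoxa13, 0.615 for Hoxa7, 0.522 for Hoxa4, 0.362 for Hoxa5, 0.361 for Hoxa11, 0.294 for Hoxa2 and for Hoxa9, and 0.0625 for Hoxa6, a single count. In cluster b it was 0.412 CPM for Hoxb8, 0.238 for Hoxb5 and 0.181 for Hoxb6. In cluster c it was 0.472 CPM for Hoxc12, 0.443 for Hoxc6, 0.319 for Hoxc9, 0.301 for Hoxc10, 0.157 for Hoxc5, 0.119 for Hoxc8 and 0.0963 for Hoxc11. In cluster d it was 0.720 CPM for Hoxd9, 0.241 for Hoxd3, 0.181 for Hoxd11, 0.117 for Hoxd12 and 0.112 for Hoxd10. Paralog groups 5, 6, 11 and 12 had no detected member in any cluster or group. Sharing of exons limits some of these values: 15 of the 38 members share exonic bases with another annotated gene, among them Hoxd3 with Hoxd4 (62.8% of Hoxd3's exonic bases lie in another gene) and Hoxb3 with the antisense RNA Hoxb3os (52.9%), and no source used here says whether the counting used strand.

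The main test covered 15 members, those that passed a filter on low counts over the 7 groups. Of these, 14 are among the 15 detected, and Hoxd9 passed without reaching 0.5 CPM in any group. Hoxd4 was detected but did not pass. With no filter, 3.20%, 23.6% and 14.5% of 43503 genes were called between VB6 and vehicle at days 3, 5 and 7. Of the 23 members that did not pass, edgeR called 0 there. In vehicle day 3 against ES it called 4 of them (28.7% of 43503 genes), Hoxa2, Hoxb5 and Hoxd4 higher and Hoxc12 lower. In VB6 day 7 against VB6 day 3 it called 3 (31.8% of genes), Hoxa13 higher (log2 difference 4.35, SE 1.04, adjusted p = 1.28e-04) and Hoxa11 and Hoxd4 lower. A member that passed through the group where it is high had to differ somewhere, so the counts that follow describe the tested members and are set beside the share of all 18901 tested genes called in the same comparison (edgeR quasi-likelihood test, Benjamini-Hochberg adjusted p under 0.05). In VB6 day 3 against ES, 6 of the 15 were higher and 4 lower, where 65.3% of all genes were called (33.2% higher, 32.1% lower). In vehicle day 3 against ES, 6 were higher and 3 lower, where 64.9% of all genes were called (33.1% higher, 31.8% lower). Those 2 comparisons share the ES libraries. In VB6 day 5 against VB6 day 3, 1 was higher and 7 lower, with 56.2% of all genes called (29.9% higher, 26.4% lower). In vehicle day 5 against vehicle day 3, 0 were higher and 8 lower, with 65.3% called (31.9% higher, 33.4% lower). Among the tested members, more were lower than higher in these later steps in either arm. Hoxb1, Hoxb2, Hoxb3 and Hoxb7 were detected only at day 3, so the filter favours this direction, which is no separate result. The same limit holds for their rise from ES cells to day 3. It also holds for a rise to day 7 of Hoxa3, which was detected only in VB6 day 7. In VB6 day 7 against VB6 day 5, edgeR called 0, with 54.5% of all genes called (27.3% in each direction). There 2 members, Hoxa3 and Hoxd1, had an unadjusted p under 0.05. DESeq2 called 0 (53.1% of all genes called) and limma on log2(TPM + 0.1) called 3 (Hoxc13, Hoxb4 and Hoxa3, with 54.2% of all genes called). In vehicle day 7 against vehicle day 5, 1 was higher and 3 lower, with 66.3% called (35.2% higher, 31.1% lower). That count of 4 was 7 with limma (60.2% of all genes called). It was 2 with no filter (28.5%) or with only the groups compared (71.9%). Over the whole span, VB6 day 7 against VB6 day 3 had 1 higher and 7 lower, with 70.9% called (36.1% higher, 34.8% lower). Vehicle day 7 against vehicle day 3 had 1 higher and 8 lower, with 67.4% called (34.3% higher, 33.1% lower). Without the 6 libraries that stood apart, a choice made after seeing the data, 9 members were called in VB6 day 3 against ES (9 shared with the fit of all libraries; 66.4% of 18372 genes called), 10 in vehicle day 3 against ES (8 shared; 65.7%), 7 in VB6 day 5 against VB6 day 3 (7 shared; 56.7%) and 7 in vehicle day 7 against vehicle day 3 (7 shared; 68.1%).

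The posterior genes Hoxc13, Hoxb13 and Hoxb9 were at their highest in ES cells. Hoxc13, known for its part in hair and nail formation, had 8.27, 6.68 and 6.92 CPM in the ES libraries. At day 3 it had 1.66, 1.69 and 1.68 CPM with VB6 and 0.883, 1.81 and 2.11 CPM with vehicle. Its day 5 libraries had 2.01, 0.912 and 1.75 CPM with VB6 and 1.78, 1.55 and 1.62 CPM with vehicle. Day 7 libraries held 2.23, 2.53 and 1.91 CPM with VB6 and 1.77, 2.04 and 1.92 CPM with vehicle. Every ES library was above every later library. The VB6 and vehicle libraries overlapped within each later day, while all VB6 day 7 libraries were above all VB6 day 3 libraries without passing the test (log2 difference 0.40, SE 0.26, adjusted p = 0.167). The log2 difference from ES was -2.12 (SE 0.23, adjusted p = 2.98e-08) in VB6 day 3 and -2.18 (SE 0.24, adjusted p = 2.61e-08) in vehicle day 3, and no later step between days passed the test. Counted in TPM, Hoxc13 averaged 4.26 of the 11.5 TPM that the 38 Hox genes summed to in ES cells.

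Hoxb13, a marker of the tail bud and prostate and the gene farthest from the rest of its cluster, had 1.94, 1.51 and 2.10 CPM in ES libraries. Its day 3 libraries had 0.832, 0.674 and 0.395 CPM with VB6 and 0.883, 1.14 and 1.21 CPM with vehicle. Day 5 libraries held 0.168, 0.0960 and 0.125 CPM with VB6 and 0, 0.115 and 0 CPM with vehicle. At day 7 it had 0.0603, 0.281 and 0.212 CPM with VB6 and 0.0554, 0.117 and 0 CPM with vehicle. The gene was at an intermediate level at day 3 and at the limit of counting from day 5 on. It was lower in VB6 day 3 than in ES cells (log2 difference -1.55, SE 0.40, adjusted p = 0.00154); vehicle day 3 did not pass (-0.77, SE 0.38, adjusted p = 0.0758). It was lower in VB6 day 5 than in VB6 day 3 (-2.23, SE 0.58, adjusted p = 0.00225). In vehicle cells it had 2 counts over 3 libraries at day 5 against 57 at day 3, and the day 3 level exceeded the day 5 level 29.1-fold (counting interval 7.70 to 246; adjusted p = 2.42e-06). Hoxb9, a thoracic-level gene of the same cluster, had 1.26, 2.14 and 1.73 CPM in ES libraries. Day 3 libraries held 0.713, 0.530 and 0.741 CPM with VB6 and 0.706, 0.542 and 0.737 CPM with vehicle. At day 5 it had 0.895, 0.624 and 0.312 CPM with VB6 and 0.756, 0.749 and 0.615 CPM with vehicle. Its day 7 libraries had 0.482, 0.337 and 0.266 CPM with VB6 and 0.498, 0.409 and 0.338 CPM with vehicle. All ES libraries were above all others. Its log2 difference from ES was -1.37 (SE 0.33, adjusted p = 8.63e-04) in VB6 day 3 and -1.36 (SE 0.33, adjusted p = 0.00106) in vehicle day 3.

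Hoxd13, the last gene of cluster d and known from digit and genital development, went another way. It had 1.26, 0.992 and 0.839 CPM in ES libraries. At day 3 it had 1.31, 1.06 and 1.83 CPM with VB6 and 1.71, 1.44 and 1.42 CPM with vehicle, and neither day 3 group passed the test against ES. Its day 5 libraries had 0.336, 0.336 and 0.437 CPM with VB6 and 1.03, 0.921 and 0.895 CPM with vehicle. Day 7 libraries held 0.301, 0.281 and 0.159 CPM with VB6 and 0.554, 0.409 and 0.395 CPM with vehicle. It was lower in VB6 day 5 than in VB6 day 3 (log2 difference -1.91, SE 0.33, adjusted p = 2.74e-05). In vehicle cells it was lower at day 5 than at day 3 (-0.68, SE 0.29, adjusted p = 0.0406), and lower at day 7 than at day 5 (-1.05, SE 0.33, adjusted p = 0.00793). The vehicle call at day 5 was lost in 9 of 14 alternatives, among them leaving out any 1 of the 6 libraries (adjusted p between 0.0545, without vehicle day 3 replicate 3, and 0.117, without vehicle day 3 replicate 1). At day 7 all 6 libraries were below all 6 libraries of day 3.

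The anterior genes of cluster b appeared at day 3 and by day 5 had left the detected set, except Hoxb4 with VB6. Hoxb1, which in the embryo sets the identity of a hindbrain segment and is a direct target of retinoic acid receptors, had 0, 0 and 0.0525 CPM in ES libraries, the last being 1 count. Its day 3 libraries had 0.594, 0.626 and 0.989 CPM with VB6 and 1.82, 1.26 and 1.47 CPM with vehicle. Day 5 libraries held 0, 0.0960 and 0 CPM with VB6 and 0.162, 0.288 and 0.168 CPM with vehicle. At day 7 it had 0, 0 and 0.0531 CPM with VB6 and 0.111, 0 and 0 CPM with vehicle. Day 3 libraries of either arm were above all ES, day 5 and day 7 libraries. Against the single ES count, the ratio was 42.6 (counting interval 7.25 to 1720, adjusted p = 1.93e-05) for VB6 day 3 and 87.2 (15.2 to 3490, adjusted p = 3.96e-07) for vehicle day 3. Hoxb1 was lower at day 5 than at day 3 with VB6 (2 counts at day 5 against 43 at day 3, adjusted p = 7.67e-05) and with vehicle (log2 difference -2.85, SE 0.53, adjusted p = 5.82e-05).

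Hoxb2, a hindbrain gene that HOXB1 is known to activate, had no count in any ES library. Day 3 libraries held 0.773, 0.626 and 0.890 CPM with VB6 and 1.65, 1.20 and 0.737 CPM with vehicle, which made it at least 4.86-fold and at least 7.62-fold higher than the ES floor of 3 counts per library (adjusted p = 2.18e-05 and 3.12e-06). At day 5 it had 0, 0.0960 and 0.0625 CPM with VB6 and 0.108, 0.173 and 0 CPM with vehicle. Its day 7 libraries had 0.0603, 0.225 and 0.0531 CPM with VB6 and 0.332, 0.0584 and 0.0564 CPM with vehicle. Only the day 3 libraries were at 0.5 CPM or more. Hoxb3, which acts in the hindbrain and pharyngeal region, had 0.0523, 0 and 0 CPM in ES libraries. At day 3 it had 0.832, 0.674 and 1.24 CPM with VB6 and 1.41, 1.08 and 1.58 CPM with vehicle. Its day 5 libraries had 0.280, 0.192 and 0.125 CPM with VB6 and 0.216, 0.173 and 0.0560 CPM with vehicle. Day 7 libraries held 0.301, 0.169 and 0 CPM with VB6 and 0.277, 0.292 and 0.338 CPM with vehicle. Against the single ES count its ratio was 52.5 (counting interval 9.03 to 2110, adjusted p = 3.78e-06) in VB6 day 3 and 78.5 (13.6 to 3140, adjusted p = 4.34e-07) in vehicle day 3. Both genes share exonic bases with the antisense RNA Hoxb3os (27.3% of Hoxb2, 52.9% of Hoxb3), and reads of the partners cannot be told apart without strand.

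Hoxb4, known for expanding blood stem cells when raised in embryonic stem cell cultures, was the only anterior cluster b gene detected at day 7, in both arms. It had 0.105, 0.261 and 0.210 CPM in ES libraries. Its day 3 libraries had 0.951, 0.530 and 0.346 CPM with VB6 and 0.883, 1.02 and 1.63 CPM with vehicle. Day 5 libraries held 0.615, 0.624 and 0.562 CPM with VB6 and 0.270, 0.403 and 0.392 CPM with vehicle. At day 7 it had 0.783, 0.956 and 1.12 CPM with VB6 and 1.16, 0.992 and 1.80 CPM with vehicle. It was higher than in ES cells in VB6 day 3 (log2 difference 1.60, SE 0.49, adjusted p = 0.00596, and 0.0558 without VB6 day 3 replicate 1) and in vehicle day 3 (2.59, SE 0.45, adjusted p = 2.36e-05). In vehicle cells it was lower at day 5 than at day 3 (-1.73, SE 0.41, adjusted p = 7.55e-04) and higher at day 7 than at day 5 (1.88, SE 0.40, adjusted p = 2.77e-04), each with no overlap of libraries. In VB6 cells neither step passed the test, and the 3 groups averaged 0.609 ± 0.310, 0.600 ± 0.0332 and 0.952 ± 0.166 CPM at days 3, 5 and 7 (SD, n = 3 each).

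After day 3, Hoxb1 and Hoxd13 were both lower in either arm, whereas Hoxb4 was detected in both arms at day 7. To show the DNA at which these patterns begin, the start regions of these 3 genes are given. Those regions hold 300 bases each, 250 before and 50 after the RefSeq start (GRCm38.p6, plus strand, 5′ to 3′). They lie at chr11:96365508-96365807 (Hoxb1), chr11:96318017-96318316 (Hoxb4) and chr2:74667975-74668274 (Hoxd13). Capitals mark TGATNNAT (the motif bound jointly by PBX and HOX proteins) in Hoxb1, AGGTCA on the minus strand (bound by retinoic acid receptors and other nuclear receptors) in Hoxb4, and the overlapping plus and minus strand matches of TATAAA (the TATA box) in Hoxd13.
Hoxb1: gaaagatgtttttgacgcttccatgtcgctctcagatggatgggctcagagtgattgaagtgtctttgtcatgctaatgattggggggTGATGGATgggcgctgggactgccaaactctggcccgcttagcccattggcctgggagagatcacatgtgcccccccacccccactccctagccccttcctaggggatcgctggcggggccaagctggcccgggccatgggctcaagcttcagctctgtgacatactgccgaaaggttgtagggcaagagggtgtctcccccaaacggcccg
Hoxb4: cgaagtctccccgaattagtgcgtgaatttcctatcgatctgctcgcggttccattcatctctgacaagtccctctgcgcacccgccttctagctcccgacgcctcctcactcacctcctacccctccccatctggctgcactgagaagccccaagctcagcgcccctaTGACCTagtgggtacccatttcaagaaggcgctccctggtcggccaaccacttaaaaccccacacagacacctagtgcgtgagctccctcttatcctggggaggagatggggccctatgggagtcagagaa
Hoxd13: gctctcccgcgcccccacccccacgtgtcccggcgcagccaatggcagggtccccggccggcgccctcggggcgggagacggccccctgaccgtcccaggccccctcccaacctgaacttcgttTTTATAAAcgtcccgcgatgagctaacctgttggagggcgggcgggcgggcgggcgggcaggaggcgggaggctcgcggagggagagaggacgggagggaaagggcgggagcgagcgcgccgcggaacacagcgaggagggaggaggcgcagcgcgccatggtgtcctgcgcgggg
These 3 windows differ in composition: GC content was 59.3% in Hoxb1, 58% in Hoxb4 and 74.3% in Hoxd13, and the observed over expected CpG ratio was 0.380, 0.593 and 0.904. Over the 24 RefSeq start regions available for 22 of the 38 members, median GC was 57.7% and median CpG ratio 0.626, against 52.7% and 0.384 over all 32841 start regions. Searched on both strands, AGGTCA was found in 7 of the 24 Hox regions and 16.3% of all, TGATNNAT in 4 of 24 and 8.85%, TATAAA in 4 of 24 and 13.6%, the CDX motif TTTATG in 5 of 24 and 11.9%, and the homeodomain core TAATTA in 2 of 24 and 5.29%. Direct repeats of AGGTCA spaced by 5 or by 2 bases, to which retinoic acid receptors bind as dimers, were found in 0 of 24 Hox regions and in 0.00913% of all regions each. A match is a description of these letters only, and enhancers outside these windows were not searched.

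Hoxa3, needed for the thymus and parathyroid, averaged 0.600 ± 0.0923 CPM in VB6 day 7 and 0.413 ± 0.208 in vehicle day 7 (SD, n = 3 each), against 0 to 0.0523 CPM in ES libraries. It was higher at day 7 than at day 3 with VB6 (32 counts against 1, ratio 34.8, counting interval 5.81 to 1420, adjusted p = 1.19e-04) and with vehicle (22 counts against 3, ratio 7.29, counting interval 2.19 to 38.0, adjusted p = 0.00656). Hoxa3 reached the detection level only in VB6 day 7, so the filter on low counts favours this direction, which is no separate result. Hoxd1, the anterior gene at the other end of cluster d from Hoxd13, had 1.15, 1.04 and 0.787 CPM in ES libraries. At day 3 it had 1.43, 1.49 and 1.29 CPM with VB6 and 1.41, 1.14 and 2.32 CPM with vehicle. Its day 5 libraries had 0.391, 0.432 and 0.437 CPM with VB6 and 0.648, 0.979 and 0.392 CPM with vehicle. Day 7 libraries held 0.181, 0.112 and 0.266 CPM with VB6 and 0.443, 0.350 and 0.338 CPM with vehicle. The mean of Hoxd1 was highest at day 3, but neither day 3 group passed the test against ES. The log2 difference from ES was 0.49 (SE 0.32, adjusted p = 0.184) with VB6 and 0.71 (SE 0.32, adjusted p = 0.0543) with vehicle. Hoxd1 was lower at day 7 than at day 3, with a log2 difference of -2.86 (SE 0.42, adjusted p = 1.96e-06) with VB6 and -2.09 (SE 0.37, adjusted p = 2.67e-05) with vehicle.

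**Figure D2:**
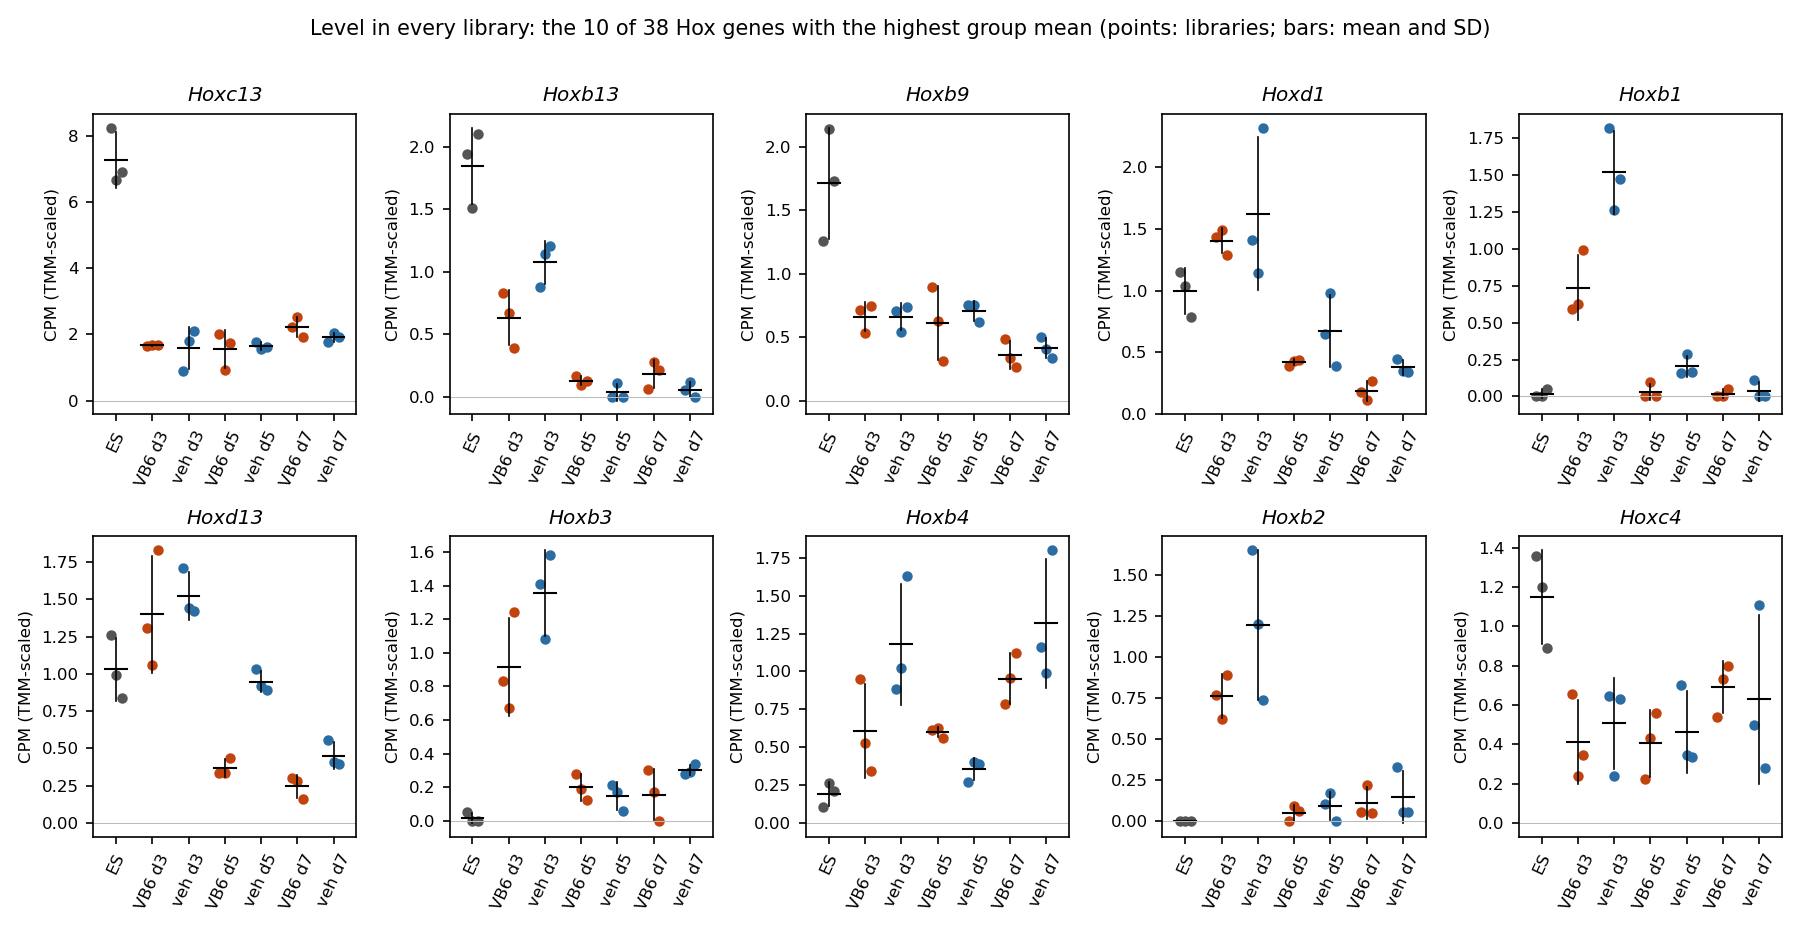
CPM of the 10 of the 38 Hox genes with the highest group mean, in every library (points), with the mean (horizontal bar) and SD (vertical bar) of each group of 3; d3, d5 and d7 are days and veh is vehicle. Hoxc13 and Hoxb9 are highest in ES cells, and Hoxb1, Hoxb2 and Hoxb3 at day 3, where the Hoxb1 libraries lie between 0.594 and 0.989 CPM with VB6 and between 1.26 and 1.82 CPM with vehicle.

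The remaining detected members were low. Hoxb7, a central gene of cluster b, averaged 0.140 ± 0.0801 CPM in ES cells, 0.778 ± 0.0592 in VB6 day 3 and 0.755 ± 0.155 in vehicle day 3 (log2 difference from ES 2.42, SE 0.57, adjusted p = 7.43e-04, and 2.38, SE 0.58, adjusted p = 9.84e-04). Later it averaged 0.181 CPM in VB6 day 5 and 0.261 in vehicle day 5, and 0.361 in VB6 day 7 and 0.300 in vehicle day 7. Hoxa10, known from the uterus, averaged 0.140 CPM in ES cells, 0.580 in VB6 day 3 and 0.448 in vehicle day 3, 0.324 in VB6 day 5 and 0.488 in vehicle day 5, and 0.0917 in VB6 day 7 and 0.131 in vehicle day 7. It was higher than in ES cells in VB6 day 3 (2.01, SE 0.68, adjusted p = 0.0126); the call in vehicle day 3 (1.65, SE 0.71, adjusted p = 0.0468) was lost in 9 of 12 alternatives, including leaving out ES replicate 1 (adjusted p = 0.0762), ES replicate 2 (0.0785), ES replicate 3 (0.116), vehicle day 3 replicate 2 (0.110) or vehicle day 3 replicate 3 (0.220). Hoxc4 had 1.36, 1.20 and 0.892 CPM in ES libraries. At day 3 it had 0.654, 0.241 and 0.346 CPM with VB6 and 0.648, 0.241 and 0.632 CPM with vehicle. Its day 5 libraries had 0.224, 0.432 and 0.562 CPM with VB6 and 0.702, 0.346 and 0.336 CPM with vehicle. Day 7 libraries held 0.542, 0.731 and 0.797 CPM with VB6 and 0.498, 1.11 and 0.282 CPM with vehicle. All later libraries but 1, of vehicle day 7, were below all ES libraries. It was lower in VB6 day 3 than in ES cells (-1.50, SE 0.47, adjusted p = 0.00795) and lower in vehicle day 3 (-1.16, SE 0.46, adjusted p = 0.0316), which was lost without ES replicate 1 (-1.03, adjusted p = 0.0919), ES replicate 2 (-1.13, adjusted p = 0.0640) or vehicle day 3 replicate 2 (-0.84, adjusted p = 0.143). Hoxd8 averaged 0.789 ± 0.343 CPM in VB6 day 7 and 0.178 to 0.412 CPM elsewhere, with no call in any comparison. Hoxd4, another hindbrain gene, averaged 0.283 ± 0.144 CPM in VB6 day 3, against 0.637 ± 0.185 CPM in vehicle day 3, and 0.0187 to 0.105 CPM in the other groups; it shares 52.3% of its exonic bases with Hoxd3 and other genes.

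Summed over genes in TPM, the cluster with the highest mean was c in ES cells and b at day 3 in either arm. Cluster c made up 1.55 ± 0.0379 TPM in VB6 day 3 and 1.62 ± 0.470 TPM in vehicle day 3, against 5.99 ± 0.740 TPM in ES cells (SD, n = 3 each). Hoxc13 alone averaged 4.26 TPM of that ES sum. Later, cluster c averaged 1.60 TPM in VB6 day 5, 1.85 in vehicle day 5, 2.88 in VB6 day 7 and 2.22 in vehicle day 7. Cluster d averaged 1.95 TPM in ES cells, 2.52 in VB6 day 3 and 3.28 in vehicle day 3, and 1.34 to 2.03 in the later groups. Cluster b had 2.56 ± 0.0551 TPM in ES cells, 3.69 ± 0.615 in VB6 day 3 and 5.43 ± 0.170 in vehicle day 3, and 1.54 to 2.03 in the groups of days 5 and 7. Cluster a had 2.33 ± 0.568 TPM in VB6 day 7 and 1.29 ± 0.251 TPM in vehicle day 7, against 0.950 ± 0.173 TPM in ES cells. By paralog class, posterior genes averaged 2.79 to 4.23 TPM in all later groups, against 8.40 ± 1.03 TPM in ES cells, with no overlap of libraries. Anterior genes summed to 2.33 ± 0.433 TPM in ES cells, 3.64 ± 0.308 in VB6 day 3 and 5.68 ± 1.13 in vehicle day 3, 1.50 ± 0.111 in VB6 day 5 and 2.14 ± 0.701 in vehicle day 5, and 2.70 ± 0.199 in VB6 day 7 and 2.63 ± 0.470 in vehicle day 7. The anterior sum of VB6 libraries was below that of vehicle libraries at day 3 with no overlap, and the libraries overlapped at days 5 and 7. These sums are descriptions with no test. TPM scaling itself shifts the median log2 difference of all genes between VB6 and vehicle by -0.069 at day 3, -0.205 at day 5 and 0.273 at day 7, against -0.012, 0.053 and 0.015 on the scale of the count test, so TPM differences at days 5 and 7 are to be read against those shifts. In CPM the anterior sums were 5.06 to 5.63 in VB6 day 3 and 6.62 to 9.79 in vehicle day 3, again without overlap, and they overlapped at days 5 and 7. The 38 Hox genes together had 8.72 ± 0.597 TPM in VB6 day 3 and 11.7 ± 1.70 in vehicle day 3, 5.70 ± 1.33 in VB6 day 5 and 7.08 ± 1.43 in vehicle day 5, and 8.64 ± 0.586 in VB6 day 7 and 6.90 ± 1.29 in vehicle day 7.

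**Figure D3:**
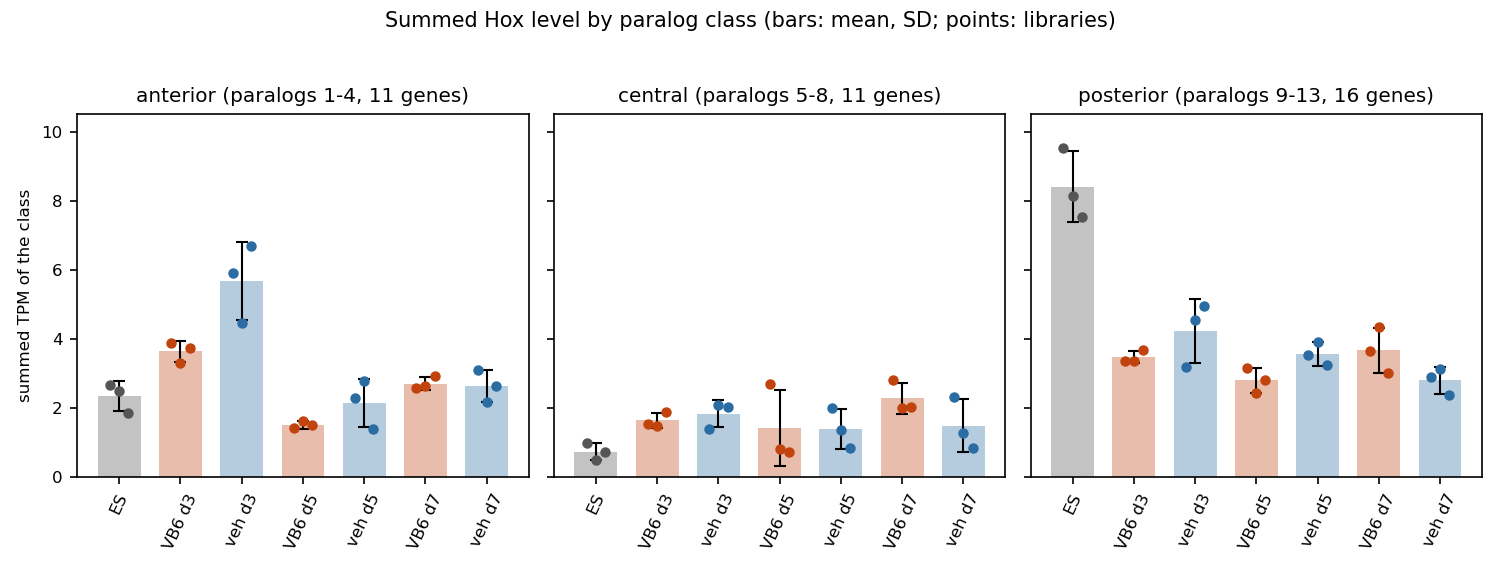
Summed TPM of the anterior, central and posterior Hox genes in each library (points), with the mean (bar, from 0) and SD of each group. The posterior sum is highest in the 3 ES libraries (7.52 to 9.54 TPM), and the anterior sum is highest in the 3 vehicle day 3 libraries (4.46 to 6.69 TPM).

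At day 3, none of these Hox genes separated VB6 from vehicle at the adjusted threshold. The edgeR test called 0 of 15 members, where 4.26% of all genes were called (1.49% higher, 2.77% lower), with 2 members at an unadjusted p under 0.05. DESeq2 and limma on log2(TPM + 0.1) also called 0, where 6.38% and 1.06% of all genes were called. Those 2 members were Hoxb4 (0.609 CPM in VB6 and 1.18 CPM in vehicle, log2 difference -0.98, SE 0.37, unadjusted p = 0.0150, adjusted p = 0.138) and Hoxb1 (0.736 CPM in VB6 and 1.52 CPM in vehicle, -1.03, SE 0.44, unadjusted p = 0.0275, adjusted p = 0.185). All 3 VB6 libraries were below all 3 vehicle libraries for Hoxb1 and for Hoxb13, whereas the Hoxb4 libraries overlapped. Here and at the later days, the share of all genes whose libraries separate in this way was not computed. Such separation is therefore a description only. Fitted on the day 3 libraries alone, Hoxb1 was called, in a fit where 12.7% of 16536 genes were called, against 4.26% in the main fit. The cluster b sum was 3.01 to 4.21 TPM in VB6 libraries and 5.24 to 5.56 TPM in vehicle libraries, with no overlap, while Hoxb7 and Hoxb9 had log2 differences of 0.04 and -0.01. Halr1, a long noncoding RNA gene near cluster a, was lower with VB6 at 8.57 ± 0.324 CPM against 18.7 ± 4.00 CPM with vehicle (-1.12, adjusted p = 1.66e-04). Beside these values, the markers of paraxial and lateral mesoderm, a tissue that expresses Hox genes in the embryo, summed to 42.3 to 43.8 TPM in VB6 day 3 and 70.1 to 86.8 TPM in vehicle day 3, with 0 and 1 of 10 markers (Hand2) at 0 and 1 of 5 tested called, lower. In ES libraries these mesoderm markers summed to 55 to 70.7 TPM. At 0.5 CPM, 2 of the 10 were detected in VB6 day 3, 3 in vehicle day 3 and 4 in ES cells. The part of these markers in the Hox result was not tested.

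At day 5, Hoxd13 and Hoxb1 were lower with VB6. The 2 calls, both lower, stood among 15 tested members where 56.7% of all genes were called (31.2% higher, 25.5% lower). Hoxd13 had 0.336, 0.336 and 0.437 CPM with VB6 and 1.03, 0.921 and 0.895 CPM with vehicle, with 20 counts over the 3 VB6 libraries and 51 over the 3 vehicle libraries. No library overlapped, and the log2 difference was -1.35 (SE 0.34, adjusted p = 0.00170). The call held in all 14 alternatives run, over which the difference ranged between -1.48 and -1.14 and the adjusted p between 1.89e-04 and 0.0168. All of them keep libraries of vehicle day 5, which stood apart, so they cannot tell library properties from VB6. With a correction for GC content and length the difference was -1.14 (SE 0.36, adjusted p = 0.0126), where 38.9% of 17418 genes were called. In that fit Hoxb1 (-2.72, adjusted p = 0.0236) and Hoxd1 (-1.02, adjusted p = 0.045) were also called lower. Hoxb1 had 2 counts with VB6 and 11 with vehicle over 3 libraries, so that the vehicle level was 5.60 times the VB6 level (counting interval 1.22 to 52.0, adjusted p = 0.0431). That call was lost in 8 of 13 alternatives, with adjusted p between 0.00333 and 0.133, including leaving out any 1 of the vehicle replicates (highest 0.131, without vehicle day 5 replicate 2) or VB6 day 5 replicate 1 (0.133) or 3 (0.125). For the other 13 members the log2 difference lay between -0.70 (Hoxb2) and 1.61 (Hoxb13, 7 counts with VB6 and 2 with vehicle), and Hoxb4 had all VB6 libraries above all vehicle libraries (0.76, SE 0.44, adjusted p = 0.154).

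At day 7, no member passed the adjusted threshold of the edgeR test between VB6 and vehicle. It called 0 of 15, with 0 at an unadjusted p under 0.05, where 36.5% of all genes were called (18.6% higher, 17.9% lower). DESeq2 called 0 (35.7% of all genes called) and limma on log2(TPM + 0.1) called 1, Hoxb3 (41.5%). The log2 difference lay between -0.98 (Hoxd1) and 1.61 (Hoxb13, 10 counts with VB6 and 3 with vehicle). Hoxd13 and Hoxd1, at the ends of cluster d, had all VB6 libraries below all vehicle libraries without passing the test (-0.87, SE 0.41, adjusted p = 0.140, and -0.98, SE 0.51, adjusted p = 0.139). A test of the difference of the VB6 effect between the 3 days called 3 of the 15 members (Hoxb4, Hoxb13 and Hoxd13), where 60.0% of all genes were called. The libraries of vehicle day 5 and VB6 day 7, on opposite sides of the VB6 comparison at these days, are those that stood apart in FPKM total and in ribosomal and mitochondrial counts as given above.

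**Figure D4:**
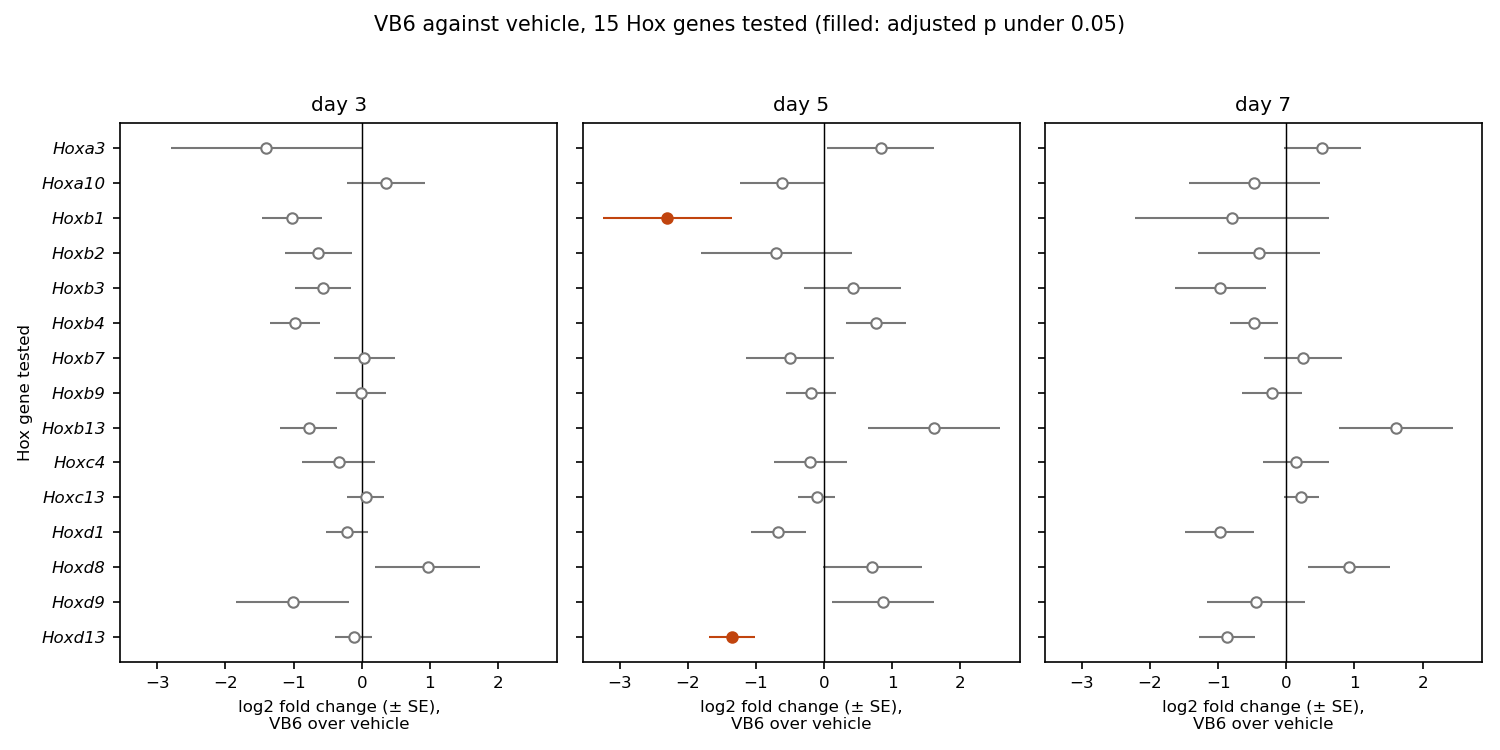
Log2 fold change of VB6 over vehicle with its standard error for the 15 tested Hox genes at days 3, 5 and 7. Filled points passed an adjusted p under 0.05: Hoxb1 and Hoxd13 (both lower) at day 5, and none at days 3 and 7.

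HOX proteins bind DNA with PBX, MEIS and PKNOX cofactors, and these were far more abundant than the Hox genes. Of these cofactors 8 were followed, all of which could be tested, and their sum was 160 to 201 TPM in VB6 day 7 and 142 to 170 TPM in vehicle day 7, against 64.5 to 82.4 TPM in ES libraries. At day 7 against day 3, 6 were higher and 1 lower in either arm. Of all genes, 70.9% were called there with VB6 (36.1% higher, 34.8% lower) and 67.4% with vehicle (34.3% higher, 33.1% lower). The median log2 difference of the cofactors was 1.04 with VB6 and 1.25 with vehicle, against 0.02 and -0.01 over all genes. Meis1 averaged 10.3 ± 1.39 CPM in VB6 day 7, against 5.58 ± 1.14 CPM in vehicle day 7 (log2 difference 0.89, adjusted p = 0.00464). Between VB6 and vehicle, 0 of the 8 were called at day 3 (edgeR; 1, Meis2, at an unadjusted p under 0.05), 4 were higher and 1 lower at day 5, and 2 higher and 1 lower at day 7, where 4.26%, 56.7% and 36.5% of all genes were called at days 3, 5 and 7. The day 5 calls with the smallest p were Pbx2 (0.59, adjusted p = 8.19e-09), Pbx3 (-0.73, 6.13e-07), Meis3 (0.85, 3.99e-05) and Pknox2 (1.20, 6.33e-05).

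Genes known to act upstream of the clusters in the embryo were read from the same libraries. Cdx2, which activates central and posterior Hox genes in the tail of the embryo, averaged 0.122 ± 0.0802 CPM in ES cells, 0.367 ± 0.110 in VB6 day 3 and 0.549 ± 0.119 in vehicle day 3, 2.97 ± 0.353 in VB6 day 5 and 1.04 ± 0.132 in vehicle day 5, and 5.70 ± 1.88 in VB6 day 7 and 7.52 ± 0.212 in vehicle day 7. It was higher with VB6 at day 5 (1.50, adjusted p = 2.40e-05). Only 2 of the 6 Cdx and ParaHox genes passed the filter. Cdx1, the other, averaged 0.0330 to 0.359 CPM in all later groups, against 5.79 ± 1.91 CPM in ES cells. Of 16 tested retinoid genes, 7 were higher and 0 lower with VB6 at day 5 (median 0.48, against 0.05 over all genes), 1 was higher and 2 lower at day 3 (-0.14, against -0.01), and 1 higher and 2 lower at day 7 (0.02, against 0.01). Beside these counts and those of trunk and axial genes below, 1.49%, 31.2% and 18.6% of all genes were higher at days 3, 5 and 7. The shares called lower were 2.77%, 25.5% and 17.9%. Cyp26a1, which breaks retinoic acid down and is itself induced by it, averaged 24.8 ± 3.30 CPM in VB6 day 3 and 21.6 ± 1.88 in vehicle day 3, against 0.559 ± 0.357 CPM in ES cells (log2 difference from ES 5.46, adjusted p = 1.55e-16, and 5.26, adjusted p = 4.83e-16). The receptors Rara and Rarg were lower with VB6 at day 3 (-0.50, adjusted p = 0.0132, and -0.43, adjusted p = 0.0317). Of 10 tested trunk and axial genes, 0 were higher and 2 lower with VB6 at day 3 (Sp8 at -1.10, adjusted p = 0.0314, and Wnt8a at -0.83, adjusted p = 0.0433), 2 higher and 1 lower at day 5 (Sp5 at 1.92, adjusted p = 1.05e-06, Cyp26a1 at 0.43, adjusted p = 0.00128, and the brachyury gene T, lower), and 0 higher and 1 lower at day 7 (Sp5 at -0.86, adjusted p = 0.00395). Wnt8a, a WNT ligand of the early primitive streak, averaged 0.297 ± 0.0802 CPM in ES cells, 3.88 ± 0.368 in VB6 day 3 and 6.91 ± 0.347 in vehicle day 3, and 0.703 to 2.69 CPM at days 5 and 7.

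Of 18 noncoding RNAs of the clusters, 3 passed the filter. Hotair and Hottip had 0 counts in all libraries of all 7 groups. The rows of the miRNA genes in the clusters also had 0 counts throughout. No source used here says whether such short RNAs were captured, so these zeros do not show that the miRNAs were absent. Halr1 averaged 27.6 ± 2.08 TPM in ES cells, where the highest Hox gene, Hoxc13, averaged 4.26 TPM. In CPM it averaged 0.488 ± 0.145 in VB6 day 5 and 0.765 ± 0.210 in vehicle day 5, against 38.5 ± 1.87 in ES cells. Haglr, an RNA on the opposite strand beside Hoxd1, averaged 0.297 ± 0.0797 CPM in ES cells, 0.928 ± 0.376 in VB6 day 3 and 1.47 ± 0.357 in vehicle day 3, and 0.0577 ± 0.0631 in VB6 day 5 and 0.261 ± 0.0331 in vehicle day 5 (VB6 over vehicle at day 5 -2.11, adjusted p = 0.0212). Hotairm1, an RNA of cluster a, was lower with VB6 at day 7 (0.394 ± 0.101 CPM against 0.978 ± 0.306 CPM with vehicle; -1.30, adjusted p = 0.0219). Most of the 17 genes that flank the clusters were detected, 13 in vehicle day 3 and 14 in each other group. The 16 found summed to 2520 to 3580 TPM over all libraries, a sum that does not speak for each gene. Of the 14 tested, 2 were higher and 8 lower with VB6 at day 5 (31.2% and 25.5% of all genes). At day 7, 5 were higher and 1 lower (18.6% and 17.9%). Evx1, next to Hoxa13, was higher at day 7 than at day 3 with VB6 (3.64, adjusted p = 1.91e-06) and with vehicle (4.06, adjusted p = 1.58e-07), and Evx2, next to Hoxd13, had no count in 6 of the 7 groups.

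Markers of other cell types differed between the same groups. Visceral endoderm markers, of a tissue that in the embryo lies outside the Hox-patterned axis, summed to 16.1 to 18.5 TPM in ES libraries, 1150 to 1300 in VB6 day 5 and 689 to 885 in vehicle day 5, and 3410 to 4410 in VB6 day 7 and 2900 to 3080 in vehicle day 7. Neural and hindbrain markers summed to 18.6 to 19.1 TPM in VB6 day 3 and 17.1 to 20.9 in vehicle day 3, 32.5 to 43.5 in VB6 day 5 and 27.7 to 32.8 in vehicle day 5, and 33.4 to 44.4 in VB6 day 7 and 39.9 to 46.4 in vehicle day 7, with Olig2 at 0 in vehicle day 5 and VB6 day 7. Mesoderm markers at day 5 summed to 15.8 to 16.4 TPM with VB6 and 6.03 to 8.46 TPM with vehicle, with Osr1 and Mesp1 at 0 in both arms. Definitive and gut endoderm markers summed to 74.5 to 97.1 TPM in VB6 day 5 and 42.0 to 52.0 in vehicle day 5, and trophoblast and extraembryonic mesoderm markers to 831 to 1040 TPM in VB6 day 5 and 466 to 485 TPM in vehicle day 5. Fibroblast and feeder markers summed to 246 to 317 TPM in ES libraries, where Hoxc13, Hoxb13 and Hoxb9 were at their highest, 103 to 106 in VB6 day 3 and 110 to 126 in vehicle day 3, 94.4 to 108 in VB6 day 5 and 107 to 113 in vehicle day 5, and 421 to 518 in VB6 day 7 and 265 to 325 in vehicle day 7. Of these markers Col3a1, Dcn, Lum and Postn were at 0 in ES libraries. Between VB6 and vehicle, 1.49%, 31.2% and 18.6% of all genes were called higher at days 3, 5 and 7, and 2.77%, 25.5% and 17.9% lower. Counting tested markers called at the same days, visceral endoderm had 3, 6 and 3 of 8 higher and 0, 0 and 3 lower, neural and hindbrain 1, 4 and 0 of 8 higher and 0, 0 and 5 lower, and mesoderm 0, 2 and 1 of 5 higher and 1, 0 and 1 lower. Definitive and gut endoderm had 0, 4 and 0 of 6 higher and 0, 0 and 1 lower, trophoblast and extraembryonic mesoderm 0, 6 and 0 of 6 higher and 0, 0 and 2 lower, fibroblast and feeder 1, 4 and 3 of 9 higher and 1, 0 and 2 lower, and ES cell markers 0, 5 and 1 of 7 higher and 2, 1 and 3 lower. The part of these cell types in the Hox levels was not tested.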

How the data were processed

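RNA of E14 cells was extracted with TRIzol and sequenced, per the labels' protocols; the labels also describe a small-RNA type of library preparation, and no source used here names the strandedness, the aligner or the counting tool. The genome build was mm10, per the submitters' processing notes. The deposited files hold, for 78317 gene rows and 21 libraries, 3 kinds of values. The authors deposited expected counts per gene, estimated from the reads and not normalized. They also deposited TPM values, scaled by the authors to transcript length and library, and FPKM values computed by the authors, which served here only to compare library totals.

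Expected counts were rounded to whole numbers and analysed with edgeR 4.0.16 (R 4.3.3): TMM scaling, filterByExpr over the 7 groups (18901 genes), 1 quasi-likelihood fit over the 21 libraries in which each group had its own mean, and Benjamini-Hochberg adjustment over all genes tested, called under 0.05. Depth was 15882380 to 21629730 counts per library; intervals for low counts are exact, and these intervals and the floor of 3 counts cover counting error only. CPM are edgeR values with TMM library sizes. Samples were grouped by the labels. Libraries of a group differed by more than sampling noise (chi-square per gene 2.16 to 15), so none was counted as a duplicate.

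Of the 39 Hox members, 1 is not reported here, nor is 1 cofactor gene; they stayed in the fit and are in no count or sum of members. All others were accounted for; values per library were given for the 10 members with the highest group mean and for members called between VB6 and vehicle. From the lists of HOX cofactors, Cdx and ParaHox genes, retinoid genes, trunk and axial genes, neighbouring genes, cluster RNAs and cell type markers, at most 4 genes per list and comparison were named, those with the smallest p; cell type markers and genes at 0 (Hotair, Hottip, Evx2) were named after their values were seen. The members and lists were chosen with earlier results of these data known. Start regions come from RefSeq (GRCm38.p6) and positions and exon overlaps from GENCODE M21. Alternatives were DESeq2 1.42.0, limma 3.58.1 on log2(TPM + 0.1), other size factors, no filter, a replicate block, a fit on the compared groups alone, a correction for GC content and length, other detection levels and leaving out each library.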

Additional observations from a re-analysis of the deposited data

Results flagged for a closer look

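For 3 of the 15 tested Hox genes the VB6 effect differed between days 3, 5 and 7 in a test of that difference itself (edgeR quasi-likelihood F test, Benjamini-Hochberg adjusted), where 60.0% of all genes were called. For Hoxb13 (adjusted p = 0.0299) the log2 difference of VB6 over vehicle was -0.78 at day 3, 1.61 at day 5 and 1.61 at day 7; the later values rest on 7 counts with VB6 and 2 with vehicle at day 5, and 10 with VB6 and 3 with vehicle at day 7. For Hoxb4 (adjusted p = 0.0365) it was -0.98, 0.76 and -0.47 in the same order of days, and no single day passed the test. For Hoxd13 (adjusted p = 0.049) it was -0.12, -1.35 and -0.87. Each of these calls was lost in some of 26 alternatives: 9 for Hoxb13 (highest adjusted p 0.0684), 13 for Hoxb4 (0.182) and 18 for Hoxd13 (0.281). The libraries that stood apart are vehicle ones at day 5 and VB6 ones at day 7, so a difference between days cannot be told apart from theirs.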

How the results depend on the processing

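Over the 61 single-gene results and 895 alternatives, 794 kept the call, 101 lost it, and 0 changed direction. The 3 results on the difference between days have no direction, so for them only the call was followed. Alternatives in which a gene was no longer tested are not among the 895. With the stricter filter, and with only the groups compared, 48 of the 61 results could be followed. Counts of called Hox genes moved by over 1.5 times as follows; the causes were not tested. Percentages beside them are the share of all genes called in the same fit. For VB6 day 5 against vehicle (2 called) the count was 1 in 4 fits. They were no filter (23.6%), the replicate block (56.3%), only the groups compared (63.5%) and DESeq2 (55.0%). For VB6 day 7 against vehicle (0 called) it was 1 with limma on TPM (41.5%). For VB6 day 3 against vehicle (0 called) it was 1 with only the groups compared (12.7%). For vehicle day 7 against day 5 (4 called) it was 2 with no filter (28.5%), 2 with only the groups compared (71.9%) and 7 with limma (60.2%). For VB6 day 7 against day 5 (0 called) it was 3 with limma (54.2%). For the difference between days (3 called) it was 0 with no filter (25.5%) and with the GC and length correction (45.9%), and 1 with DESeq2 (58.9%). Detected members at 0.25 CPM were 11 in VB6 day 5, 10 in vehicle day 5, 10 in VB6 day 7 and 12 in vehicle day 7, and at 1 CPM 3 in VB6 day 3 (8 in vehicle day 3), 1 in VB6 day 5, 1 in vehicle day 5 and 1 in VB6 day 7; at 0.5 TPM there were 7 in VB6 day 3. Leaving out each library in turn gave 0 to 0 calls for VB6 against vehicle at day 3, 1 to 3 at day 5 and 0 to 0 at day 7, 9 to 10 for VB6 day 3 and 7 to 10 for vehicle day 3 against ES, 7 to 8 for VB6 and 6 to 8 for vehicle between days 3 and 5, 0 to 2 for VB6 and 3 to 4 for vehicle between days 5 and 7, 8 to 10 for VB6 and 7 to 9 for vehicle between days 3 and 7, and 0 to 3 for the difference between days. Detected members then ranged over 6 to 6 in ES, 10 to 11 in VB6 day 3, 11 to 12 in vehicle day 3, 3 to 4 in VB6 day 5, 5 to 6 in vehicle day 5, 5 to 6 in VB6 day 7 and 3 to 5 in vehicle day 7. Same-numbered libraries deviated together with correlations of -0.27 to 0.17, so the numbers do not pair the samples. Hox counts of 108.1 to 365.4 per library limit every comparison here. GC content and length were known for 17418 of 18901 genes (92.2%), the 15 tested Hox genes included. Of 72 counts over the other lists, 1017 of 1110 alternatives were within 1.5 times and 93 were not.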
